A study of Mus musculus with 6 samples.

Results

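The expression of 10 genes used as surface and secreted markers of alveolar macrophages was examined in mouse alveolar macrophages cultured with and without the cytokine GM-CSF. The 10 genes were Car4, Siglec5, Itgax, Marco, Mrc1, Chi3l3, 1600029D21Rik, Slc39a2, Krt19 and Krt79. They were taken by name from a list of markers, a list made with earlier results of these libraries known, and all 10 were found among the 16840 genes of the deposited count table. All 10 also passed the filter on low counts, as did 12340 genes in all. The table uses older symbols: Siglec5 is the gene of Siglec-F (Siglecf), Chi3l3 is that of the chitinase-like protein Ym1 (Chil3), and 1600029D21Rik is Plet1. The proteins of Krt19 and Krt79 are keratins, filament proteins inside the cell, and so are neither surface nor secreted. The study sequenced RNA of alveolar macrophages of wild-type (WT) mice taken at day 2 to profile the response to DON. There were 3 groups of 2 libraries each: GM-CSF with DON, GM-CSF, and no GM-CSF. All groups shared the genotype and the time point, and the DON group also had GM-CSF. The labels give DON without its full name and give AM as the cell line, with no word on whether these were primary cells. Whether replicates were independent cultures or animals is not stated either. The p-values therefore cover the spread between libraries, which may be purely technical.

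Alveolar macrophages live on the air side of the lung surface, where they clear surfactant, dust and microbes. GM-CSF, a cytokine made by the alveolar epithelium, binds the receptor chains encoded by Csf2ra and Csf2rb, signals through STAT5 and keeps up the PPAR-gamma programme of these cells. The cells are usually identified by surface proteins such as CD11c (Itgax), Siglec-F and CD206 (Mrc1). RNA of a bulk sample does not tell apart fewer cells of a type from less RNA per cell, and it does not measure protein at the surface.

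Total counts were between 28321986 and 35196387 per library, with a count for 14892 to 15188 genes. Levels are given as CPM (library-scaled counts, with the TMM adjustment for RNA composition), and as the authors' FPKM, which also divides by gene length, where genes are compared with each other. The cells carried general macrophage RNA in every group. Lyz2, the macrophage lysozyme, averaged 18910 ± 1070 CPM in GM-CSF with DON, 17080 ± 34.9 CPM in GM-CSF and 36600 ± 34.9 CPM in no GM-CSF (SD, n = 2 each). The surfactant genes of lung epithelium Sftpb, Sftpc and Sftpd had between 0 and 2 counts in each library. Other epithelial markers were detected: of 8 tested, 0 were higher and 5 lower with GM-CSF than without. Scgb1a1 had 38 and 33 counts in no GM-CSF, against 0 to 8 in the other libraries, and Epcam 47 and 73 against 17 to 28.

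For the 4 markers whose promoters are shown here, the 250 bases before the RefSeq transcription start were taken from RefSeq (GRCm38.p6). Car4, 1600029D21Rik and Marco were lower and Chi3l3 higher with DON than with GM-CSF alone. Slc39a2, which rose the most with DON, and Krt19, Itgax and Siglec5 were also higher, and their promoters are not shown. Each is written 5′ to 3′ on the gene's own strand, and capitals mark matches to 4 short motifs. Car4 is at chr11:84957504-84957753 on the plus strand, 1600029D21Rik at chr9:50494275-50494524 on the plus strand, Marco at chr1:120505025-120505274 on the minus strand and Chi3l3 at chr3:106167565-106167814 on the minus strand.
Car4: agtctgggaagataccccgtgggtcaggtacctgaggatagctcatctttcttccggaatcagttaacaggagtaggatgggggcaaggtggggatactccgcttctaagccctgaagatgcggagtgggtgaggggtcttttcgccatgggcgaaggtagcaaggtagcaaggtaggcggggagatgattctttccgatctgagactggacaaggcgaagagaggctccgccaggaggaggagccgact
1600029D21Rik: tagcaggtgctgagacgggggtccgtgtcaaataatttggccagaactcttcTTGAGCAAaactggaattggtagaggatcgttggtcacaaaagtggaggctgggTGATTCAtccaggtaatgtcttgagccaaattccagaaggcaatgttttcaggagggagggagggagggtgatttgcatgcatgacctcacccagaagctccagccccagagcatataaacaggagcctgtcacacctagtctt
Marco: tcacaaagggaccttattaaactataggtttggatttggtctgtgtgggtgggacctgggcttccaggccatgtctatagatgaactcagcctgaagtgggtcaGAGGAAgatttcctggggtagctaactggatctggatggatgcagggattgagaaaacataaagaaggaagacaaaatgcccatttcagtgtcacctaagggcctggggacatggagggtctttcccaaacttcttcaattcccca
Chi3l3: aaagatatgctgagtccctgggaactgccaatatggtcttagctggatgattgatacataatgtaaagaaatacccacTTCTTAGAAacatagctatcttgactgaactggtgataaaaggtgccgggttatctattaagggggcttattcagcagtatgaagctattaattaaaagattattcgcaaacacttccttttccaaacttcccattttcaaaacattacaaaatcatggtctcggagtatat

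The motifs were searched on both strands in the 9 markers with a RefSeq promoter entry (Krt19 was not matched). The STAT5 motif TTCNNNGAA was found in 1 of 9 windows, that of Chi3l3 (-172 to -164 from the start), and in 7.02% of 32851 RefSeq promoter windows of the same length. The core motif of PU.1, GAGGAA, was found in 3 of 9, in Siglec5, Marco (-146 to -141) and Mrc1, against 23.3% of all windows. The AP-1 motif TGANTCA was found in Itgax and 1600029D21Rik (-144 to -138), 2 of 9 windows, against 6.75% of all. The C/EBP motif TTGCNNAA was found in 1600029D21Rik alone (-198 to -191, on the other strand), 1 of 9 windows, against 9.56% of all. Car4, Slc39a2 and Krt79 had no match to any of the 4. A match of this kind is a description of the letters and no evidence of binding, and these motifs did not overlap each other in the windows shown.

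The comparison of GM-CSF against no GM-CSF asked which markers differed with the cytokine. Car4 averaged 656 ± 6.51 CPM with it and was nearly absent without it, at 0.226 ± 0.0159 CPM (SD, n = 2 each). Slc39a2, 1600029D21Rik and Chi3l3 were 8.21-fold, 6.98-fold and 3.06-fold higher with GM-CSF, and Krt19 was 1.97-fold higher. The surface receptors most used to identify the cells moved little: Mrc1 was 1.24-fold higher, Siglec5 1.25-fold lower and Marco 1.23-fold lower, and Itgax did not pass the test. Krt79 fell 2.90-fold.

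By quasi-likelihood testing in edgeR, with p-values adjusted by Benjamini-Hochberg over all 12340 genes, 9 of the 10 markers passed an adjusted p of 0.05, where 56.8% of all genes did. Of these, 6 rose, against 27.5% of all genes, and 3 fell, against 29.3%. A change of at least 2-fold was seen in 5 of the 10, Car4, Slc39a2, 1600029D21Rik, Chi3l3 and Krt79, against 11.7% of all genes. The median log2 fold change was 0.64 over the 10 markers and -0.02 over all genes tested. Without GM-CSF replicate 1, GM-CSF replicate 2 or no GM-CSF replicate 2 the number of markers called was 8.

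The groups with GM-CSF were then compared to ask how adding DON changed the markers. The 10 markers divided. Car4, 1600029D21Rik and Marco fell, by 2.09-fold, 1.55-fold and 2.28-fold, while Slc39a2 rose 2.20-fold, Krt19 1.68-fold, Chi3l3 1.39-fold, Itgax 1.31-fold and Siglec5 1.20-fold. Mrc1 and Krt79 did not pass the test. The markers that rose most with GM-CSF thus went both ways with DON: Car4 and 1600029D21Rik were lower, and Slc39a2 and Chi3l3 were higher still.

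Of the 10 markers, 8 passed the test, against 57.6% of all genes. Those that rose numbered 5, against 28.8% of all genes, and those that fell numbered 3, against 28.8%. Car4, Marco and Slc39a2 changed at least 2-fold, 3 of the 10, against 9.37% of all genes. The median log2 fold change was 0.33 over the markers and 0.01 over all genes.

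GM-CSF with DON was also set against no GM-CSF, to place the DON group beside cells that had neither. Car4 remained far above its level without the cytokine, at 314 ± 15.7 CPM against 0.226 ± 0.0159 CPM. Slc39a2 was 18.1-fold, 1600029D21Rik 4.51-fold, Chi3l3 4.25-fold and Krt19 3.31-fold higher, and Mrc1 and Itgax were 1.37-fold and 1.31-fold higher. Marco was 2.82-fold and Krt79 1.91-fold lower, and Siglec5 did not pass the test. Here 9 of the 10 were called, against 55.6% of all genes, with 7 higher (27.2% of all genes), 2 lower (28.4%) and 6 changed at least 2-fold (11.6%). The median log2 fold change was 1.09 over the markers and 0.01 over all genes. The 3 comparisons share libraries, so their values are given side by side and are not independent of each other.

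**Figure D1:**
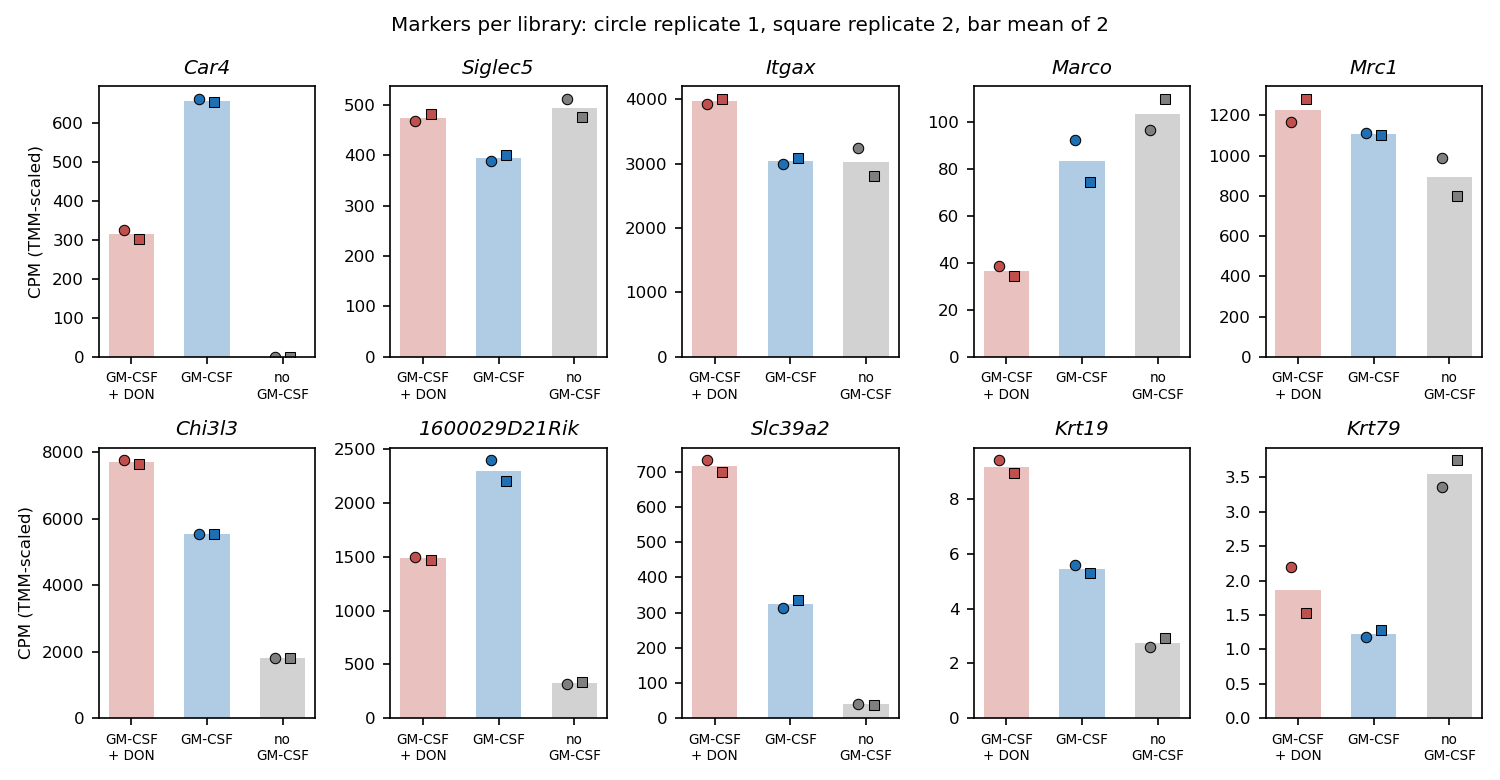
CPM of each of the 10 markers in the 6 libraries, on a linear axis from 0 that differs between panels; bars are means of 2 libraries, circles replicate 1 and squares replicate 2. Car4 reaches 303 to 325 CPM with DON and 652 to 661 CPM with GM-CSF alone, and is too low to see without GM-CSF. Slc39a2, Chi3l3 and Krt19 are highest in GM-CSF with DON and lowest in no GM-CSF.

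Car4 encodes carbonic anhydrase 4, an enzyme anchored to the outer face of the cell membrane that interconverts carbon dioxide and bicarbonate. It lies on chromosome 11 from 84957786 to 84966044 on the plus strand (GRCm38, GENCODE M21, as for all gene positions here), and all 10 markers are annotated as protein-coding genes. It had 325 and 303 CPM in the libraries with GM-CSF and DON, 661 and 652 CPM in those with GM-CSF, and 0.215 and 0.238 CPM in those without. The groups did not overlap in any comparison. The DON libraries held 9294 and 9856 counts and the GM-CSF libraries 22526 and 19414, against 7 and 8 in the libraries without GM-CSF. Since the group without GM-CSF held only 15 counts in all (exact Poisson interval 8.40 to 24.7), the ratio of GM-CSF to no GM-CSF, scaled to library size, was 2900 with a 95% counting interval of 1760 to 5180. The fitted log2 fold change was 11.48 ± 0.09 (SE; adjusted p = 5.11e-13), the second largest rise of all genes tested. With DON against no GM-CSF it was 10.41 ± 0.10 (adjusted p = 1.65e-12), and with DON against GM-CSF it was -1.06 ± 0.04 (adjusted p = 8.23e-08). The SEs of 0.09 and 0.10 come from the edgeR test and are narrower than the counting interval. DESeq2 gave 11.51 ± 0.38 for GM-CSF and 10.43 ± 0.38 for GM-CSF with DON, each against no GM-CSF. On the log2(FPKM + 1) scale, which understates changes of genes near 0, the rises were 9.01 and 7.94.

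Siglec5, the gene of Siglec-F, encodes a sialic acid-binding receptor with inhibitory signalling motifs that marks alveolar macrophages and eosinophils in the mouse. The gene is on chromosome 7 from 43351341 to 43359531 on the plus strand. It had 467 and 481 CPM in GM-CSF with DON, 388 and 400 CPM in GM-CSF, and 511 and 476 CPM in no GM-CSF. The GM-CSF libraries were the lowest, and the DON libraries overlapped those without GM-CSF. The fold change with GM-CSF was -0.33 ± 0.05 on the log2 scale (adjusted p = 0.000157), and that with DON against GM-CSF was 0.27 ± 0.05 (adjusted p = 0.000589). With DON against no GM-CSF the difference was -0.06 ± 0.05 (95% interval -0.16 to 0.04, adjusted p = 0.303). Of 6 listed eosinophil markers only 1 was found by symbol among the genes counted, Il5ra, which had 4 to 9 counts per library. The others could not be assessed.

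Itgax encodes CD11c, the alpha chain of an integrin that pairs with the common beta chain encoded by Itgb2. Its position is chromosome 7 from 128129547 to 128150657 on the plus strand. It had 3932 and 4004.5 CPM in GM-CSF with DON, 2988 and 3083 CPM in GM-CSF, and 3245 and 2811 CPM in no GM-CSF. The DON libraries lay above all others, and the GM-CSF libraries lay between those without GM-CSF. The rise with DON was 0.39 ± 0.06 against GM-CSF (adjusted p = 0.000256) and 0.39 ± 0.06 against no GM-CSF (adjusted p = 0.000254). For GM-CSF against no GM-CSF the log2 fold change was 0.00 ± 0.06 (95% interval -0.12 to 0.13, adjusted p = 0.964). Its sign changed with single libraries, to -0.10 without no GM-CSF replicate 2 and -0.02 without GM-CSF replicate 2.

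Dendritic cells also carry CD11c, and their markers moved with GM-CSF. Of 8 listed dendritic cell markers 5 were tested, and 3 rose with GM-CSF: Zbtb46 (3.23), Batf3 (1.86) and Clec9a (0.94 on the log2 scale). When DON was added 1 rose, Clec9a (0.86), and 2 fell, Zbtb46 (-1.17) and Batf3 (-0.91), and with DON against no GM-CSF the same 3 markers were higher, by 2.06 for Zbtb46, 1.80 for Clec9a and 0.95 for Batf3. The list medians were 0.94, -0.12 and 0.95. The summed level of the 8 genes was 25.6 and 25.8 CPM in GM-CSF with DON, 28.3 and 27.9 CPM in GM-CSF, and 8.95 and 8.68 CPM in no GM-CSF. Their part in the Itgax level was not tested.

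Marco encodes a class A scavenger receptor that binds bacteria and inhaled particles. It lies on chromosome 1 from 120474538 to 120505024 on the minus strand. It had 38.8 and 34.7 CPM in GM-CSF with DON, 92.6 and 74.8 CPM in GM-CSF, and 96.8 and 110 CPM in no GM-CSF. The DON libraries were well below the others, and the GM-CSF and no GM-CSF libraries came close without overlapping. The log2 fold change with DON was -1.19 ± 0.10 against GM-CSF (adjusted p = 7.53e-06) and -1.50 ± 0.10 against no GM-CSF (adjusted p = 1.12e-06). The fold change with GM-CSF was -0.30 ± 0.10 (adjusted p = 0.023). That call rested on single libraries: without GM-CSF replicate 2 it was -0.16 (adjusted p = 0.206), without no GM-CSF replicate 2 it was -0.21 (adjusted p = 0.0972), and without GM-CSF replicate 1 it was -0.47. On log2(FPKM + 1) in limma it was -0.30 (adjusted p = 0.0697).

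Mrc1 encodes CD206, the mannose receptor, a C-type lectin that takes up glycoproteins. The gene spans chromosome 2 from 14229392 to 14332057 on the plus strand. It had 1169 and 1282 CPM in GM-CSF with DON, 1112 and 1102.5 CPM in GM-CSF, and 987 and 801 CPM in no GM-CSF. The 3 groups followed this order with no overlap, but the spread between the libraries without GM-CSF was wide. The fold change was 0.31 ± 0.08 with GM-CSF (adjusted p = 0.00872) and 0.46 ± 0.08 with DON against no GM-CSF (adjusted p = 0.000968). With DON against GM-CSF it was 0.15 ± 0.08 (95% interval -0.04 to 0.33, adjusted p = 0.153). The rise with GM-CSF was 0.47 without no GM-CSF replicate 1, 0.17 without no GM-CSF replicate 2, and 0.30 without GM-CSF replicate 1, the last not called (adjusted p = 0.0523). A fit of only the 4 libraries with GM-CSF gave the same difference with DON, 0.15, with an adjusted p of 0.0191.

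Most tested markers of monocytes and of other tissue macrophages, which can also carry the mannose receptor, went the other way from Mrc1 with GM-CSF. Of 7 tested, 0 rose and 6 fell, with a median of -2.09, among them Trem2 (-2.78) and the complement gene C1qc (-2.09). The monocyte marker Ccr2 did not pass the test (-0.09 ± 0.28, adjusted p = 0.82). When DON was added 1 rose, Trem2 (0.90; list median -0.19), and with DON against no GM-CSF 6 fell and 0 rose (median -1.88). The summed level of 11 of the 12 listed genes was 161 and 162 CPM in GM-CSF with DON, 89.7 and 93.5 CPM in GM-CSF, and 623 and 604.5 CPM in no GM-CSF. Most of that sum was Trem2, which averaged 154.5 CPM in GM-CSF with DON, 83.05 CPM in GM-CSF and 568.4 CPM in no GM-CSF. The part of cells with these markers in the Mrc1 level was not tested.

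1600029D21Rik, now Plet1, encodes a membrane protein held by a lipid anchor, known in mice from placenta and epithelia as well as from alveolar macrophages. It lies on chromosome 9 from 50494525 to 50505482 on the plus strand. It had 1502 and 1472 CPM in GM-CSF with DON, 2395 and 2204 CPM in GM-CSF, and 322.5 and 336 CPM in no GM-CSF. The DON libraries stood between the others without overlap. The fold change was 2.80 ± 0.05 with GM-CSF (adjusted p = 9.46e-11), -0.63 ± 0.05 with DON against GM-CSF (adjusted p = 2.04e-06) and 2.17 ± 0.05 with DON against no GM-CSF (adjusted p = 5.38e-10). The annotation has an antisense gene that shares 261 exon bases with it. The strand setting of the counting is not given in the sources used here, so reads from these shared bases, out of 1947 exon bases of the gene, cannot be assigned to one of the pair.

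Chi3l3 encodes Ym1, a secreted lectin of the chitinase family that lacks chitinase activity and can form crystals in mouse airways. The gene is on chromosome 3 from 106147554 to 106167564 on the minus strand. It had 7762 and 7643 CPM in GM-CSF with DON, 5536 and 5551 CPM in GM-CSF, and 1810 and 1819 CPM in no GM-CSF. The replicates of each group were close and the groups stood far apart. The fold change was 1.61 ± 0.03 with GM-CSF (adjusted p = 2.28e-10), 0.47 ± 0.03 with DON against GM-CSF (adjusted p = 1.01e-06) and 2.09 ± 0.03 with DON against no GM-CSF (adjusted p = 4.99e-11). In GM-CSF with DON it was among the 12 highest genes by FPKM, in GM-CSF among the 17 highest and in no GM-CSF among the 65 highest. Of the 50-base windows of its exons, 26.9% also occur in another gene, mainly Chil4 (Ym2, here Chi3l4) or a pseudogene, and 4.93% of 100-base windows do. Chi3l4 itself held 1 to 19 counts per library, and how the counting treated shared reads is not given.

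Slc39a2 encodes ZIP2, a zinc importer of the plasma membrane. Its position is chromosome 14 from 51892889 to 51896745 on the plus strand. It had 732 and 698 CPM in GM-CSF with DON, 315 and 335 CPM in GM-CSF, and 39.9 and 39.2 CPM in no GM-CSF. The groups did not overlap, and the DON libraries were the highest. The fold change was 3.04 ± 0.05 with GM-CSF (adjusted p = 7.69e-11), 1.14 ± 0.05 with DON against GM-CSF (adjusted p = 6.73e-08) and 4.18 ± 0.05 with DON against no GM-CSF (adjusted p = 2.08e-11). Its exons share 151 bases with the neighbouring gene Mettl17, whose counts were 4.61% to 31.8% of those of Slc39a2. Mettl17 rose as well, by 0.98 ± 0.10 with GM-CSF, 0.57 ± 0.09 when DON was added and 1.55 ± 0.10 with DON against no GM-CSF, and its part in the Slc39a2 value was not tested.

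Krt19 encodes a small acidic keratin known best from simple epithelia. It lies on chromosome 11 from 100140810 to 100148665 on the minus strand. It had 9.41 and 8.94 CPM in GM-CSF with DON, 5.58 and 5.30 CPM in GM-CSF, and 2.61 and 2.91 CPM in no GM-CSF, or 85 to 291 counts per library. The 3 groups stood apart in this order. The fold change was 0.98 ± 0.13 with GM-CSF (adjusted p = 0.000122), 0.75 ± 0.11 with DON against GM-CSF (adjusted p = 0.00029) and 1.73 ± 0.12 with DON against no GM-CSF (adjusted p = 1.43e-06).

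Krt79, a basic keratin known from hair follicle and gland ducts of mouse skin, ran the other way in both comparisons with no GM-CSF. The gene spans chromosome 15 from 101929332 to 101940324 on the minus strand. It had 2.20 and 1.54 CPM in GM-CSF with DON, 1.174 and 1.276 CPM in GM-CSF, and 3.35 and 3.74 CPM in no GM-CSF, from only 38 to 126 counts per library. The libraries without GM-CSF were the highest, and the replicates with DON differed the most. The fold change was -1.53 ± 0.23 with GM-CSF (adjusted p = 0.000269) and -0.93 ± 0.22 with DON against no GM-CSF (adjusted p = 0.00475). With DON against GM-CSF it was 0.60 ± 0.25 (adjusted p = 0.0618), with 0.33 (adjusted p = 0.361) without DON replicate 1 and 0.85 (adjusted p = 0.0267) without DON replicate 2.

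**Figure D2:**
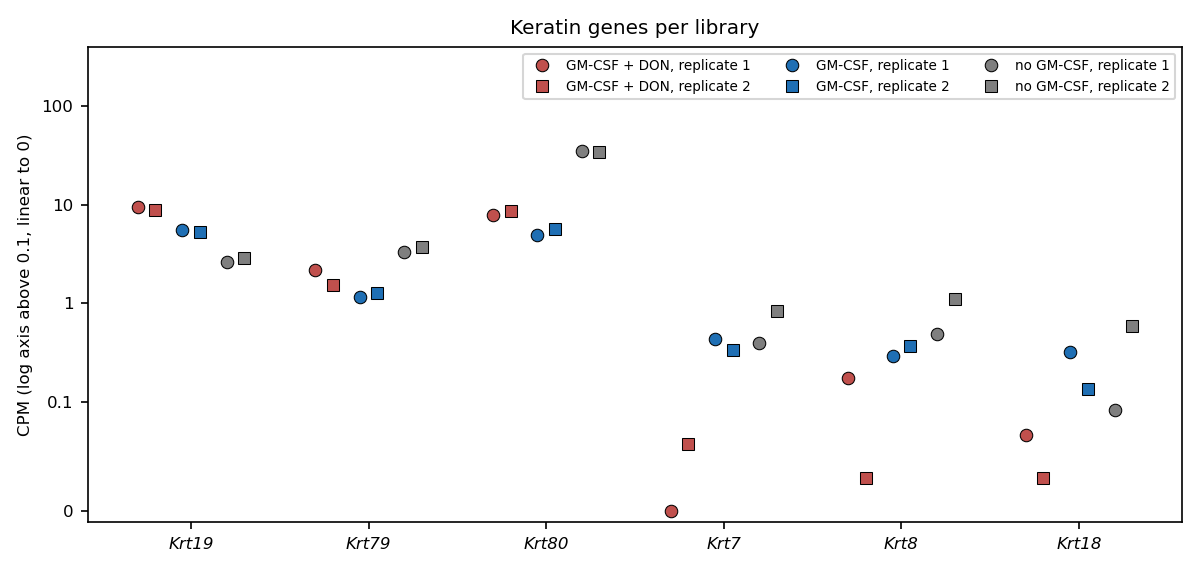
CPM of 6 keratin genes in the 6 libraries, on an axis that is logarithmic above 0.1 and linear to 0; circles are replicate 1 and squares replicate 2. Krt19 is highest in GM-CSF with DON, at 9.41 and 8.94 CPM, Krt79 and Krt80 are highest in no GM-CSF, and Krt7, Krt8 and Krt18 lie near or below 1 CPM in every library.

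Of 31 keratins listed 12 were found by symbol, and 6 besides the markers were tested. With GM-CSF 0 of these rose and 1 fell, Krt80 (-2.73; median of the 6, -0.77). It averaged 8.27 ± 0.468 CPM in GM-CSF with DON, 5.29 ± 0.547 CPM in GM-CSF and 35.1 ± 0.744 CPM in no GM-CSF. With DON against GM-CSF 1 rose, Krt80 (0.65), and 1 fell (median -1.04), and with DON against no GM-CSF 0 rose and 3 fell (median -2.40), Krt80 by 2.08 on the log2 scale. The keratins of simple epithelium Krt7, Krt8 and Krt18, named after their values were seen, had 13, 16 and 3 counts in no GM-CSF replicate 1, against 28, 37 and 20 in replicate 2. Krt19 was at 2.61 CPM in replicate 1 and 2.91 CPM in replicate 2 of the same group. Epithelial markers went both ways between these libraries: Epcam had 47 and 73 counts, Scgb1a1 38 and 33, and Abca3 3154 and 2927. Whether Krt19 follows epithelial RNA was not tested.

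Keratin RNA could come from epithelial cells, so epithelial markers are given beside it. Of 15 listed 12 were found by symbol. Their summed level was 88.3 and 89.4 CPM in GM-CSF with DON, 75.9 and 77.9 in GM-CSF, and 110 and 102 CPM in no GM-CSF. Most of that sum was Abca3, a lipid transporter gene with 2064 to 3154 counts per library. Of 8 tested, 0 rose and 5 fell with GM-CSF (median -0.88), including Epcam (-1.45), Hopx (-0.75) and Abca3 (-0.42). When DON was added 1 rose, Abca3 (0.22), and 1 fell (median -0.08), and with DON against no GM-CSF 0 rose and 6 fell (median -1.01). The part of these cells in the keratin values was not tested.

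**Figure D3:**
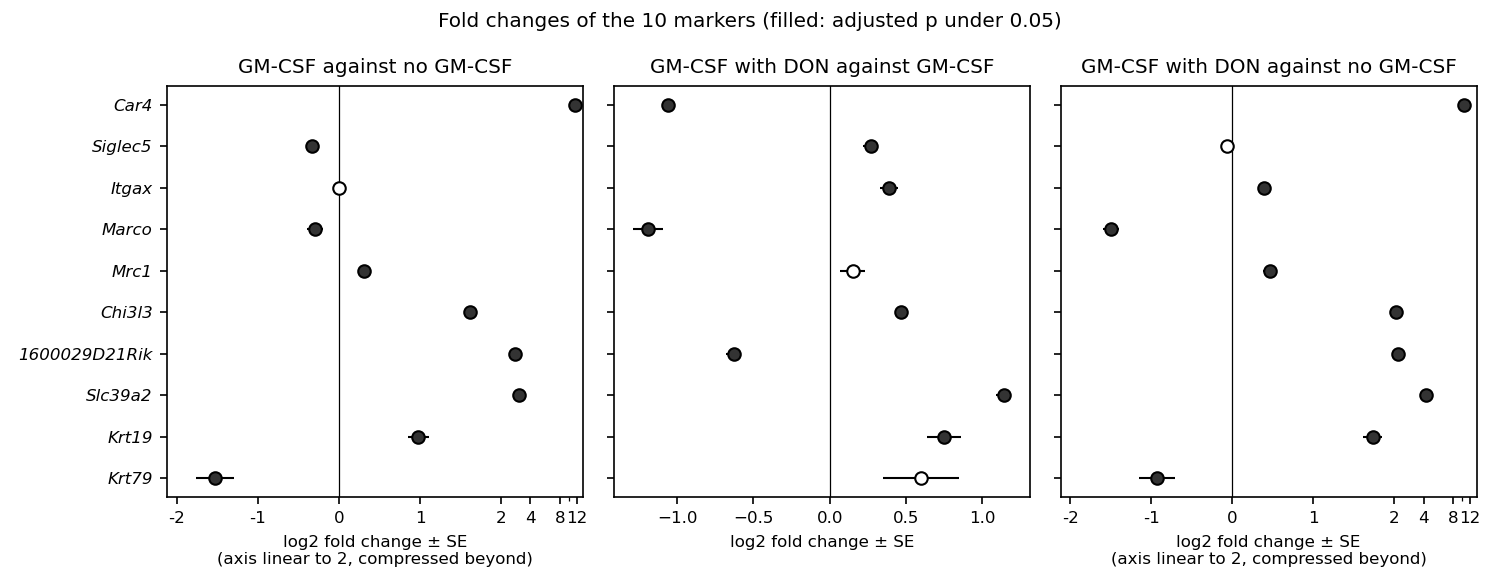
Log2 fold change of each marker with its SE in the 3 comparisons, fitted in edgeR; filled points passed an adjusted p of 0.05 and open points did not. The Car4 SEs in the outer panels are narrower than its counting error. The outer panels are linear to 2 and compressed beyond, to hold Car4 at 11.48 and 10.41, and the middle panel shows Car4, Marco and 1600029D21Rik below 0 and Slc39a2 farthest above 0, at 1.14.

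The levels of the markers could be ranked by FPKM. In GM-CSF with DON the order was Chi3l3 (5687 FPKM), Itgax (1027), 1600029D21Rik (902.5), Slc39a2 (415), Car4 (297), Mrc1 (240), Siglec5 (209), Marco (20.3), Krt19 (6.65) and Krt79 (0.974 FPKM). In GM-CSF 1600029D21Rik came second at 1403 FPKM, before Itgax at 793 FPKM and Car4 at 625 FPKM, and Slc39a2 was sixth at 197 FPKM. In no GM-CSF Chi3l3 (1351 FPKM) and Itgax (788 FPKM) still led, Siglec5 came next at 217 FPKM, and Car4 was last at 0.212 FPKM. The libraries of neighbours in these orders did not overlap except for Krt19 and Krt79 in no GM-CSF, at 1.99 ± 0.148 and 1.86 ± 0.141 FPKM (SD, n = 2). With 2 libraries a group the smaller steps between neighbours were not tested.

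**Figure D4:**
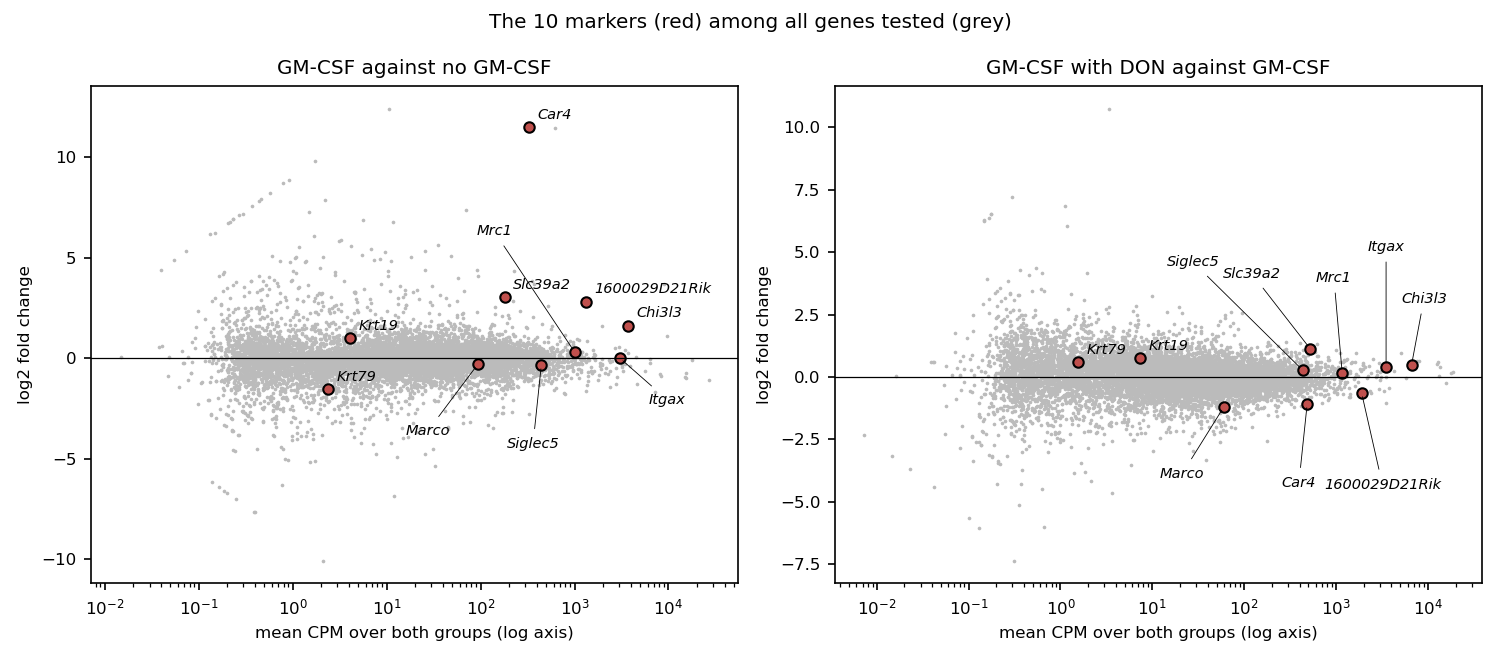
Log2 fold change against mean CPM over both groups (log axis) for all 12340 genes tested, in grey, with the 10 markers in red, for GM-CSF against no GM-CSF (left) and for the addition of DON to GM-CSF (right). Car4 stands near the top of the left panel at 11.48, the second largest rise, while Itgax, Siglec5, Mrc1 and Marco lie close to 0 among genes of like level.

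Relatives of each marker were examined to see whether the whole family moved. In the carbonic anhydrases, Car4 made up 89.0% and 88.8% of the summed FPKM in GM-CSF with DON, 95.4% and 95.5% in GM-CSF, and 0.710% and 0.810% in no GM-CSF. Of 7 other carbonic anhydrases tested, 3 rose and 1 fell with GM-CSF (median -0.03), the largest changes being of the hypoxia-linked Car9 (-0.94), Car5a (0.70) and Car5b (0.31). With DON 3 rose and 0 fell against GM-CSF (median 0.33) and 3 rose and 0 fell against no GM-CSF (median 0.07).

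Slc39a2 made up 61.7% and 60.9% of the summed FPKM of 13 ZIP zinc importers in GM-CSF with DON, 38.4% and 38.9% in GM-CSF, and 6.36% and 6.62% in no GM-CSF. Of the 12 others, 2 rose and 6 fell with GM-CSF (median -0.14), with Slc39a14 up by 0.76. With DON added 2 rose and 6 fell (median -0.24), with Slc39a10 at -0.71, and against no GM-CSF 2 were higher and 6 lower (median -0.22). Slc39a2 was the highest of the 13 by FPKM in GM-CSF with DON (415) and in GM-CSF (197), whereas Slc39a1, named after its values were seen, was the highest in no GM-CSF (137 FPKM, against 23.7 FPKM of Slc39a2).

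The chitinase family consisted almost wholly of Chi3l3 reads. Chi3l3 was 98.3% to 99.6% of its summed FPKM in every library. Of the 3 others tested, 1 rose (Chid1, 0.31) and 1 fell (Ctbs, -0.35) with GM-CSF, 1 rose (Ctbs, 0.45) and 1 fell (Chid1, -0.34) with DON against GM-CSF, and 1 rose and 0 fell with DON against no GM-CSF (medians 0.31, 0.45 and 0.10). Mrc1 was 94.8% and 94.7% of the mannose receptor family in GM-CSF with DON, 90.8% and 91.3% in GM-CSF, and 80.9% and 81.8% in no GM-CSF. Its relative Ly75 (DEC-205), the 1 other tested, fell with GM-CSF (-0.91), when DON was added (-0.68) and with DON against no GM-CSF (-1.59).

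Itgax was 44.9% and 45.2% of the summed FPKM of the CD11 chains and their beta chain in GM-CSF with DON, 40.9% and 41.3% in GM-CSF, and 32.9% and 30.6% in no GM-CSF. The beta chain Itgb2 fell by 0.64 on the log2 scale and Itgam (CD11b) by 0.77 with GM-CSF, where 0 of 4 relatives rose and 3 fell (median -0.71). With DON against GM-CSF 1 rose, Itgb2 (0.22), and 0 fell (median 0.14), and with DON against no GM-CSF 0 rose and 3 fell (median -0.49). Itgad, whose sequence is close to that of Itgax (8.02% of 50-base windows shared), had 4 to 24 counts per library.

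Siglec5 was 55.6% and 55.0% of the Siglec receptors in GM-CSF with DON, 56.5% and 56.3% in GM-CSF, and 53.3% and 53.9% in no GM-CSF. With GM-CSF 1 of 5 relatives rose and 4 fell (median -0.77), led by Siglec1 (CD169, -1.43), Siglece (-0.95) and Cd22 (-0.77). Between DON and GM-CSF alone 2 rose and 2 fell (median 0.25), with Cd22 up by 0.70 and Siglece at -1.89, and against no GM-CSF 1 rose and 3 fell (median -1.18).

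Marco was 17.7% and 16.1% of the class A scavenger receptors in GM-CSF with DON, 22.4% and 18.5% in GM-CSF, and 22.5% and 25.4% in no GM-CSF. Both relatives tested fell when DON was added, Colec12 (-0.97) and Msr1 (-0.75; median of the pair -0.86). With GM-CSF Msr1 rose by 0.79 and Colec12 fell (-1.28; median -0.24), and with DON against no GM-CSF 0 rose and 1 fell (Colec12, -2.25; median -1.10).

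**Figure D5:**
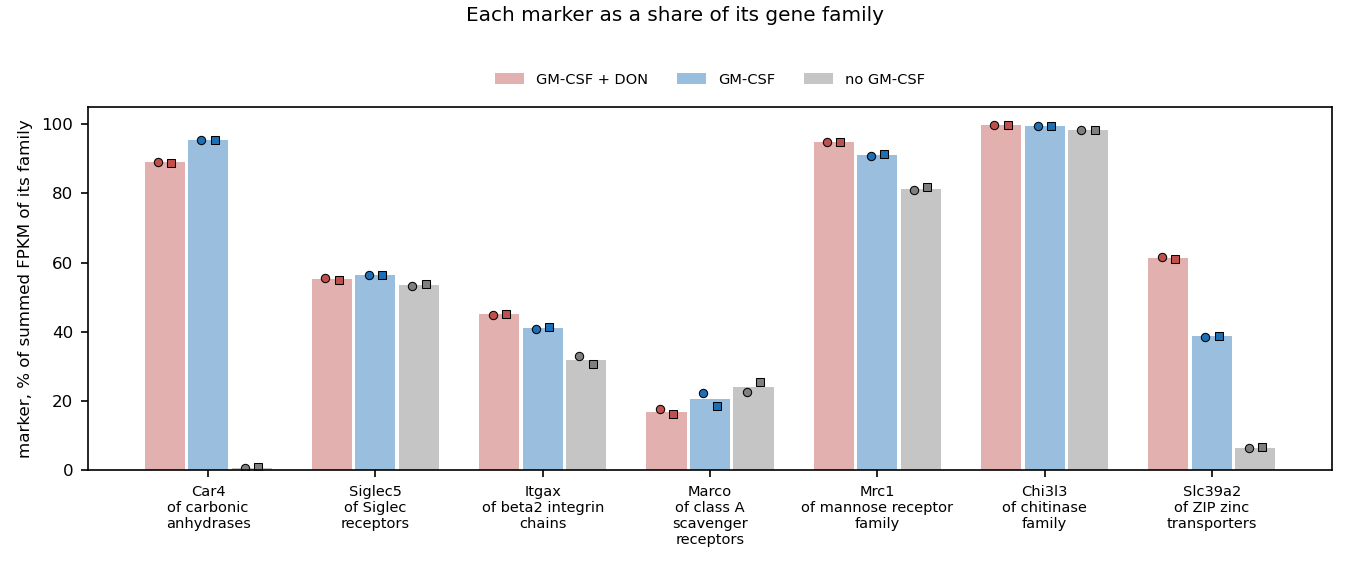
Share of each marker in the summed FPKM of its gene family, in percent on an axis from 0; bars are means of 2 libraries with replicate 1 as circles and replicate 2 as squares. Car4 is at 0.710% and 0.810% of carbonic anhydrase FPKM without GM-CSF, Slc39a2 makes up 61.7% and 60.9% with DON, 38.4% and 38.9% with GM-CSF and 6.36% and 6.62% without, and the Siglec5 and Chi3l3 bars differ little between groups.

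The genes whose profile over the 6 libraries was most like that of a marker were found by the root mean square difference in centred log2(CPM + 0.5) over 7728 genes that averaged 10 CPM or more. For Car4 the nearest were the chemokine gene Ccl17 (difference 0.39), the STAT5 target Cish (1.44) and the ribonuclease gene Ear6 (1.95). Ear6 differed from Car4 in its direction with DON, at 46.1 CPM in GM-CSF with DON, 23.2 CPM in GM-CSF and 0.212 CPM in no GM-CSF. Ccl17 averaged 783 CPM in GM-CSF with DON, 1246 CPM in GM-CSF and 0.439 CPM in no GM-CSF. For 1600029D21Rik they were AI504432 (0.118), Olfm1 (0.141) and the potassium channel gene Kcna3 (0.156), and for Chi3l3 the properdin gene Cfp (0.0771), Kazn (0.0847) and the cell cycle inhibitor Cdkn1a (0.141). For Slc39a2 they were Amigo2 (0.251), the channel gene Aqp9 (0.256) and Spag11b (0.365).

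For Marco the nearest were the tubulin gene Tuba4a (0.0616), Lrp8 (0.0977) and the ribonuclease gene Ear2 (0.110). Ear2 averaged 94.9 CPM in GM-CSF with DON, 221.5 CPM in GM-CSF and 252 CPM in no GM-CSF, and reads of the Ear family may be shared between its members. Krt79 was nearest to Tmem51 (0.0725), the iron transporter Slc11a2 (0.0765) and the protease Ctsk (0.0912), and Krt19 to O3far1 (0.0545), Cited4 (0.0908) and Mettl17 (0.091). Siglec5 was nearest to Atxn2 (0.0159), Itgax to Sik3 (0.024) and Mrc1 to Fgd6 (0.0561). Likeness here is over 3 group levels and 6 libraries and says nothing of shared control.

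Other alveolar macrophage genes moved in both directions. Of 30 listed and tested, 10 rose, 13 fell and 7 did not pass the test with GM-CSF (median -0.13). The adhesion gene Cdh1 (2.83) and the lipid-binding Fabp1 (2.30) rose, and the protease Ctsk fell (-1.29). Adding DON to GM-CSF, 14 rose, 11 fell and 5 did not pass (median 0.08), with the largest falls in Cdh1 (-1.93), the interleukin-1 receptor antagonist Il1rn (-1.59) and Ear2 (-1.22). Against no GM-CSF, DON gave 8 higher, 14 lower and 8 not passed (median -0.04), with Il1rn (-1.71), Ly75 (-1.59) and Fabp1 (1.51) changed the most. Cdh1 averaged 25.6 ± 0.705 CPM in GM-CSF with DON, 98.0 ± 3.62 CPM in GM-CSF and 13.8 ± 3.33 CPM in no GM-CSF, and so followed the order of Car4 and 1600029D21Rik.

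General macrophage markers moved as well. Of 9 tested, 1 rose with GM-CSF, the Fc receptor Fcgr1 (1.37), and 7 fell, led by F4/80 (Emr1, -2.41) and the receptor Csf1r (-1.14; list median -0.76). Adding DON to GM-CSF, 5 rose and 4 fell (median 0.15), with Emr1 up by 0.79, Mertk up by 0.64 and Fcgr1 at -1.21, and with DON against no GM-CSF 1 rose and 6 fell (median -0.53) and Csf1r at -1.72. Of 7 neutrophil markers 2 were found by symbol and 1 tested, S100a8. It fell with GM-CSF (-2.03) and with DON against no GM-CSF (-2.29), and did not pass the test with DON against GM-CSF (-0.26). It averaged 3.41 ± 0.52 CPM in GM-CSF with DON, 4.05 ± 0.412 CPM in GM-CSF and 16.6 ± 0.901 CPM in no GM-CSF (SD, n = 2 each), and its part in the marker values was not tested. Of 7 lymphocyte markers 4 were found by symbol, with a summed level of at most 1.20 CPM. The 1 tested did not pass in any comparison (medians -0.15, 0.00 and -0.15). Of 7 markers of stroma and endothelium 6 were found by symbol and 2 tested, at summed levels of 0.430 to 1.73 CPM. With GM-CSF 1 rose (median 1.87). With DON against GM-CSF 1 rose and 1 fell, Cdh5 (-1.08), with a median of 0.41. With DON against no GM-CSF 1 rose (median 2.28).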

How the data were processed

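RNA of 6 libraries of mouse alveolar macrophages had been sequenced on an Illumina instrument, per the labels' protocols. The authors deposited a table of whole-number counts per gene and a table of FPKM for the same genes; the build mm10, DESeq2 1.28.1, STAR 2.6.0a, Subread 1.4.6 and featureCounts are named in the submitters' processing notes, without their roles. Annotation and strand setting are not given in the sources used. Groups came from the titles and treatment labels.

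Counts were fitted with edgeR 4.0.16 (R 4.3.3) over all 6 libraries with 1 coefficient per group, after filterByExpr (minimum count 10) and TMM scaling. The quasi-likelihood test was two-sided, with Benjamini-Hochberg adjustment over 12340 genes and a threshold of 0.05. There were 3 residual and 6.74 prior degrees of freedom. Each SE is the absolute log2 fold change divided by the square root of the F statistic of its test. It can understate the error where a group has few counts, as for Car4 without GM-CSF. Intervals are 95%. Those taken from counts leave out the spread between libraries and treat reads as independent. PCR reads lacking molecular identifiers are not independent, so these intervals can be too narrow. Alternatives were RLE scaling, no filter, DESeq2 1.42.0, limma 3.58.1 on log2 FPKM, the 4 libraries compared, the replicate number as a block, and leaving out each library. Tables and figures were made in Python 3.11.15.

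The markers and the 17 gene lists (193 entries, 146 found, 1 by an older symbol) were chosen with earlier results of these data known. Besides the markers, the text names at most 3 genes per list and comparison, those with the largest change among genes called with a mean of at least 1 CPM, and genes that could share reads with a marker. Other names were chosen after their values were seen, and not every gene of the lists is reported here. No set test was run, and no p was adjusted over a list alone. Replicates were not copies: a chi-square of their counts was 4.50, 5.29 and 8.46 per degree of freedom with DON, with GM-CSF and without.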

Additional observations from a re-analysis of the deposited data

How the results depend on the processing

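Of 390 alternative values of the markers' fold changes, 379 kept their direction and side of the threshold. The exceptions were Itgax, Marco and Mrc1 with GM-CSF and Mrc1 and Krt79 with DON against GM-CSF. Itgax with GM-CSF ranged from -0.10 to 0.11 when a library was left out. Marco with GM-CSF ranged from -0.47 to -0.16 (adjusted p 0.00476 to 0.206 over all alternatives), and lost its call in both FPKM fits. Mrc1 with DON against GM-CSF ranged from 0.08 to 0.21, and passed in the fit of the 4 libraries compared and without either library lacking GM-CSF. Krt79 fell by 0.80 with GM-CSF on log2(FPKM + 1), against 1.53 in the fit of counts. On log2(FPKM + 0.1) Car4 rose by 10.97 with GM-CSF and 9.89 with DON against no GM-CSF, a difference that the added constant makes by construction. The number of genes and of markers called stayed within 1.5 times in every comparison and alternative run. RLE scaling changed no call of a marker. Relative levels of the markers differed by at most 3.22% in FPKM and 0.909% with RLE scaling. The labels do not say that a replicate number marks a shared animal or batch, and the differences between replicates correlated at 0.0675, -0.311 and -0.0476 between pairs of groups. With the replicate block 6708, 6882 and 6542 genes were called for GM-CSF against no GM-CSF, DON against GM-CSF and DON against no GM-CSF, and no marker's call changed. Depth limits Krt79 most, with 38 to 126 counts per library, and Car4 without GM-CSF, with 7 and 8 counts.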
